A study of Homo sapiens with 8 samples.

Results

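The genes described here are the enzymes that build cholesterol and fatty acids, together with the regulators and carriers that set cellular sterol levels. They were taken by gene symbol from a list of 38, of which 29 had a named probe set among 14884 genes in all. The 9 others, GGPS1, FDFT1, LSS, CYP51A1, SC5D, NPC1, NPC2, ABCA1 and ABCG1, were not measured here and may lie among 37519 probe sets without a name. Where a gene had several probe sets, the one with the highest mean over all arrays was used.

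The samples were 8 arrays of MOLM-14 cells (spelled MOLM14 or MOML14 in the labels), an established human acute myeloid leukaemia line. In 4 arrays the cells expressed a short hairpin RNA (shCD39) directed at CD39, an enzyme that breaks down extracellular ATP and is encoded by ENTPD1, and in 4 a scrambled hairpin (shCTRL). Both groups received doxycycline for 72 h, so any effect of the drug itself is common to them. The labels call the arrays of a group technical replicates and the extraction protocol speaks of clones, without saying how many. Each group may therefore be a single culture, and p-values measure only the spread between arrays.

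Cells make cholesterol from acetyl-CoA through the mevalonate pathway, squalene and a long series of sterol intermediates. Fatty acids come from the same acetyl-CoA through acetyl-CoA carboxylase and fatty acid synthase. Both arms are driven by the sterol regulatory element binding proteins, SREBPs, membrane-bound transcription factors encoded by SREBF1 and SREBF2. When sterols are scarce, SCAP escorts them to the Golgi for cleavage, and the INSIG proteins hold SCAP back when sterols are plentiful. The SREBF2 product is known mainly for cholesterol genes and that of SREBF1 for fatty acid genes, while the sterol-sensing receptors called LXRs induce SREBF1, MYLIP, ABCA1 and ABCG1. SREBPs bind weakly alone and usually act beside NF-Y, a factor that recognises the letters CCAAT.

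All values are log2 expression values, in which 1 unit is a doubling, and every fold change is shCD39 minus shCTRL on that scale with its standard error (SE). Changes were tested with limma, with Benjamini-Hochberg adjustment over all 14884 genes and a threshold of 0.05. The table was scaled so that arrays have close distributions, with array medians of 3.13 to 3.17 and correlations between arrays of 0.974 to 0.987. The distributions were not identical: a further quantile normalization moved the median change over the measured members from 0.06 to 0.13. The median over all genes went from 0.01 to 0.02, so equal medians do not show that small changes are free of scaling. With such scaling a change is relative to the bulk of genes, and in bulk RNA fewer cells of a kind and less RNA per cell cannot be told apart. ENTPD1 read 2.42, 2.14, 2.72 and 2.95 in shCD39 arrays and 3.16, 2.88, 3.21 and 4.12 in shCTRL arrays. Its change of -0.79 (SE 0.25, limma adjusted p = 0.178) did not pass the threshold, so a knockdown was not shown at the RNA level here. Every one of these ENTPD1 readings lay below 4.30, the median over genes of the mean value, so the probe set was dim and a failed knockdown was not shown either. The shCD39 array 4 had the lowest quality weight of the 8 arrays, 0.635 where the others had 0.81 to 1.44, so some results are also given without it.

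Of the myeloid markers, SPI1, FLT3, LYZ, MPO, CSF1R and CSF3R had named probe sets, and CD33, CEBPA and ITGAM were not measured here. Over all 8 arrays each of the 6 averaged above the median gene, but the table carries no detection call. Over the 6 the median log2 fold change was 0.08, with 4 above 0 and 2 below. The monocyte markers LYZ and CSF1R had 1.07 and 1.36 with no overlap between groups (limma adjusted p = 0.0926 and 0.0849), while SPI1 had 0.13, CSF3R 0.03, FLT3 -0.29 and MPO -0.40, all with overlap. Without shCD39 array 4, where 423 genes (2.84%) passed, LYZ and CSF1R passed too (limma adjusted p = 0.00475 and 0.00774), and without shCTRL array 1 they did not (0.287 and 0.275).

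The 3 measured T and NK cell markers, CD247, NKG7 and PRF1, had changes of 0.14, 0.50 and 0.34, and only NKG7 had groups that did not overlap (limma adjusted p = 0.131). Their mean deviation from the shCTRL mean was 0.25 to 0.40 in shCD39 arrays and -0.09 to 0.23 in shCTRL arrays. The single measured B cell marker, PAX5, had -0.27, with every shCD39 array below every shCTRL array (limma adjusted p = 0.265, exact permutation p = 0.0286). The 2 erythroid markers had a median of 0.22 and the 3 hepatocyte markers one of 0.02, all with overlap. CD247, PRF1, the erythroid markers KLF1 and AHSP and the hepatocyte markers ALB and APOA1 averaged below the median gene, 4.30. NKG7, PAX5 and the hepatocyte marker TTR averaged above it. The part of these markers in the results below was not tested.

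The sequences below show the promoter letters, with the motifs of the SREBP and NF-Y factors, of 5 of the 6 genes whose arrays separated by group. ACACA, the other one, has 3 annotated start sites and is not shown. Each is the RefSeq promoter window on build GRCh38.p14, from 250 bases before the transcription start to 50 after it, on the strand of the gene. Capitals mark CCAAT or its reverse complement ATTGG and, in SREBF2, a match to the sterol-element-like motif TCACNCCAC.
MSMO1 (chr4:165327419-165327718, plus strand): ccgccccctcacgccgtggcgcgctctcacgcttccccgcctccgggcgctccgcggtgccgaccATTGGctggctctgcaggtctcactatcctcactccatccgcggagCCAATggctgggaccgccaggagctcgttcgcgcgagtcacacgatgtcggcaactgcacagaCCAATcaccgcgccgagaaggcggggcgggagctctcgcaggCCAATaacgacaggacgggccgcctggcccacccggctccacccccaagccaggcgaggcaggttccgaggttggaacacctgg
MVK (chr12:109573544-109573843, plus strand): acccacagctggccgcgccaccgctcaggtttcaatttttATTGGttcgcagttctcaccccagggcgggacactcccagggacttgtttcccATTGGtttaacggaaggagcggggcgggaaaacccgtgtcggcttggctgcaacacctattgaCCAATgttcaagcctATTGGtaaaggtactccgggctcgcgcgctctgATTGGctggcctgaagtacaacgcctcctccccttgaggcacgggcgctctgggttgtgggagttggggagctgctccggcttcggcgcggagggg
MYLIP (chr6:16128836-16129135, plus strand): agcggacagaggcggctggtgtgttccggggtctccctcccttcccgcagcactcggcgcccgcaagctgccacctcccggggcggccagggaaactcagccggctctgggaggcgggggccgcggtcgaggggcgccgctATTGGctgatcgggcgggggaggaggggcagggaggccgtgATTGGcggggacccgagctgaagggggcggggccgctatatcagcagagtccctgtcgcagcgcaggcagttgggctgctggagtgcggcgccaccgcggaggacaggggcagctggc
SREBF2 (chr22:41832855-41833154, plus strand): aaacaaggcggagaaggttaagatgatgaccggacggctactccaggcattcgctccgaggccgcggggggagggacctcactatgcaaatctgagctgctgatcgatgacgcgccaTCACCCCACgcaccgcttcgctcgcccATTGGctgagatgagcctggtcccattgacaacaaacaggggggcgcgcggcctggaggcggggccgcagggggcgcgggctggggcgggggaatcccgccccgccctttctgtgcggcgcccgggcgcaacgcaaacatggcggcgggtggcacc
SREBF1 (chr17:17836937-17837236, minus strand): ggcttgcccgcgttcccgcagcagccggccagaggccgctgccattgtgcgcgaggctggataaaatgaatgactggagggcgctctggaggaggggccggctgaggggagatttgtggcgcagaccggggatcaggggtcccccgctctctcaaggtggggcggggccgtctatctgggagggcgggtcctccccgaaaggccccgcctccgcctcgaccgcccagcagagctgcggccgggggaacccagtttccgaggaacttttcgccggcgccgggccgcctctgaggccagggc

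MSMO1, the methylsterol monooxygenase that takes part in the removal of methyl groups from the sterol ring, has 4 CCAAT matches in this window, and mevalonate kinase, MVK, has 5. MYLIP has 2, SREBF2 has 1 beside its sterol-element-like match, and the 1 window of SREBF1 has none of either. Any other start site of SREBF1 was not searched, so sites elsewhere in that gene would be missed. A CCAAT match was found in 34.6% of all 35116 human promoter windows, and at least 2 in 10.8%. Of the measured cholesterol enzymes, 12 had a window and 11 of these held a match in at least 1 window. Counted by window, 12 of 16 (75%) held a match and 11 held at least 2. In the fatty acid arm, 7 measured genes had a window and 5 of these held a match in at least 1 window. Counted by window, 7 of 12 (58.3%) held a match and 4 held at least 2. Windows of 1 gene can overlap and share matches, and a match is only a run of letters. ACAT2, SQLE and FASN are named only.

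The sterol-element-like motif TCACNCCAC, searched on both strands with N as any base, occurred in 1.13% of all windows and, among measured members, in that of SREBF2 only. Other bases had to match exactly, so a window without a match may still hold a sterol element of different letters. The E-box CACGTG occurred in 7.26% of all windows and in those of INSIG1 and SCAP among measured members.

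**Figure D1:**
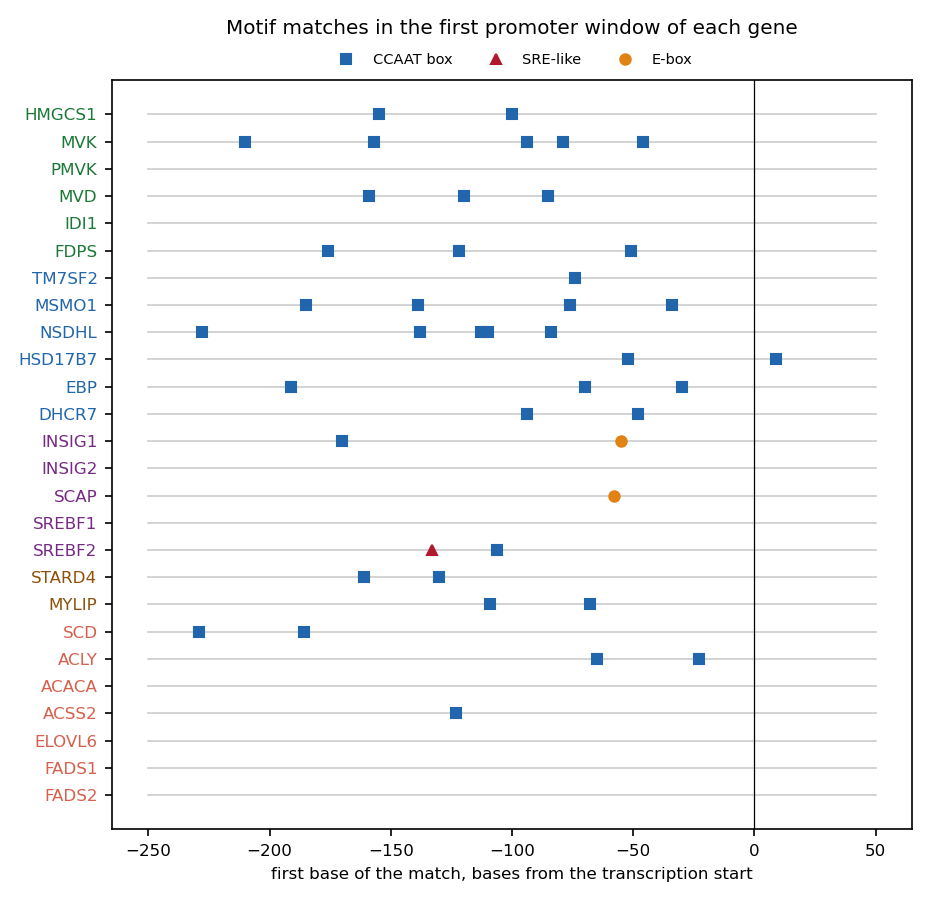
Positions of motif matches in the first RefSeq promoter window of the 26 measured members that have one; the x axis is the distance in bases from the transcription start, squares are CCAAT matches, the triangle a TCACNCCAC match and circles CACGTG matches on either strand. Gene names are green for mevalonate genes, blue for sterol genes, purple for regulators, brown for uptake and transport and red for fatty acid genes. The blue and green rows, apart from PMVK and IDI1, carry at least 1 square, and MVK and NSDHL carry 5.

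The question was whether the rise of MSMO1, known from the comparison of all genes, was shared by the rest of the pathway. MSMO1 read 7.34, 7.41, 7.60 and 7.22 in shCD39 arrays, against 6.49, 6.71, 6.46 and 6.41 in shCTRL arrays. Every shCD39 array lay above every shCTRL array, and the gap between the groups was wider than the range within either. The mean was 7.39 ± 0.16 in shCD39 and 6.52 ± 0.13 in shCTRL (SD, n = 4 each), a 1.83-fold rise (log2 0.88, SE 0.12, limma adjusted p = 0.0295). The exact permutation p was 0.0286, the smallest that 4 against 4 arrays can give.

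MSMO1 was the only one of the 29 measured members past the threshold, while 14 of all 14884 genes (0.0941%) passed, 7 (0.047%) in each direction. Its call depended on single arrays: the change stayed between 0.81 and 0.94 when each array was left out in turn. The adjusted p missed the threshold without shCD39 array 1, 2 or 3 (0.0627, 0.095 and 0.105) and without shCTRL array 1 or 3 (0.131 and 0.135). Without shCD39 array 4 it was 0.00661, where 2.84% of genes passed, and without both arrays numbered 4 it was 0.0151, where 2.47% passed. Without shCTRL array 4 it was 0.0313, where 0.322% passed. MSMO1 was the only member called in each of these 3, and without shCTRL array 1 no gene passed (0%), though 1574 had an unadjusted p under 0.05 by limma.

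The other cholesterol enzymes had values at or above 0, several of them close to it, without passing the threshold. All 14 measured enzymes of the mevalonate and sterol steps had means in shCD39 at or above those in shCTRL, with a median log2 fold change of 0.20, where the median of all genes was 0.01 and 52% of them were positive. The range ran from 0.00 for PMVK to 0.88 for MSMO1, and without MSMO1 the median was 0.17. Under the other settings tried, where all 14 were tested, 12 to 14 were positive, with 12 without shCD39 array 4, without shCTRL array 3 or without both arrays numbered 4. None of the other 13 passed over all genes, and 3 of them had an unadjusted p under 0.05 in the higher direction, as did 6.54% of all genes. Over all members 7 had one, 5 higher and 2 lower, where 14.7% of all genes did and 8.13% were lower.

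**Figure D2:**
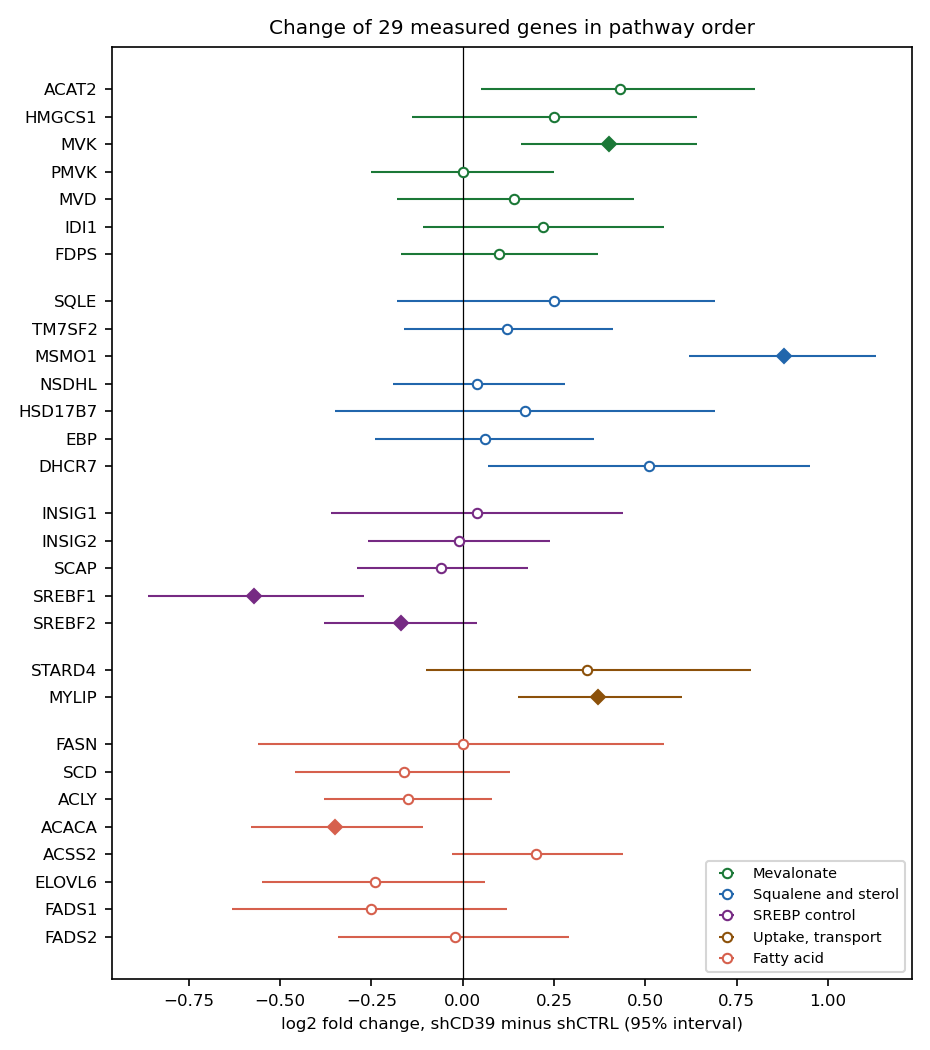
Log2 fold change (shCD39 minus shCTRL, x axis) of the 29 measured members in pathway order, with 95% intervals from limma; filled diamonds are genes whose arrays did not overlap between groups and open circles are the rest. The cholesterol enzymes at the top lie at or right of 0, led by MSMO1 at 0.88. SREBF1 and ACACA are the genes on the left whose intervals exclude 0.

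In the mevalonate steps, ACAT2, which condenses acetyl-CoA, read 7.80, 7.14, 7.75 and 7.40 in shCD39 arrays and 6.87, 7.35, 6.87 and 7.29 in shCTRL arrays. The groups overlapped by shCD39 array 2, and the change was 0.43 (SE 0.17, limma adjusted p = 0.281). MVK, which phosphorylates mevalonate, read 5.55, 5.25, 5.57 and 5.46 in shCD39 arrays and 5.06, 5.16, 4.96 and 5.05 in shCTRL arrays. Here the groups did not overlap, with a change of 0.40 (SE 0.11, limma adjusted p = 0.138, exact permutation p = 0.0286). It lay between 0.36 and 0.47 whichever array was left out.

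HMGCS1, the synthase that makes HMG-CoA, had a change of 0.25 (SE 0.18). Array 4 was the highest in both groups, at 6.51 in shCD39 and 6.13 in shCTRL. The other shCD39 arrays read 5.82 to 5.95, within the shCTRL range of 5.53 to 6.13. The change was 0.09 without shCD39 array 4, 0.36 without shCTRL array 4 and 0.20 without both. The isomerase IDI1 had 0.22 (SE 0.15), the decarboxylase MVD 0.14 (SE 0.15) and farnesyl diphosphate synthase, FDPS, 0.10 (SE 0.12). These too moved with single arrays: IDI1 had 0.09 without shCTRL array 3 and 0.34 without shCTRL array 4, and MVD had 0.03 without shCD39 array 1 and 0.28 without shCD39 array 4. FDPS had 0.01 without shCTRL array 3 and 0.16 without shCD39 array 2. Phosphomevalonate kinase, PMVK, was at 0.00 with a 95% interval of -0.25 to 0.25, well short of the change in MSMO1.

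In the sterol steps, DHCR7, which makes the final reduction to cholesterol, came nearest to MSMO1. It read 7.31, 6.58, 7.31 and 6.65 in shCD39 arrays and 6.35, 6.67, 6.08 and 6.71 in shCTRL arrays. Only shCD39 arrays 1 and 3 stood above the shCTRL range, and the change was 0.51 (SE 0.20, limma adjusted p = 0.266). Squalene epoxidase, SQLE, read 6.73, 7.29, 6.70 and 7.36 in shCD39 arrays and 6.46, 6.82, 6.55 and 7.24 in shCTRL arrays. In SQLE it was arrays 2 and 4 that were high in both groups, and the change was 0.25 (SE 0.20). Single arrays moved it, to 0.14 without shCD39 array 4, 0.16 without shCD39 array 2, 0.15 without shCTRL array 1 and 0.41 without shCTRL array 4.

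The enzymes that act around MSMO1 did not share its size of change. NSDHL, the dehydrogenase that works on its product, had a change of 0.04 with a 95% interval of -0.19 to 0.28. The isomerase EBP had 0.06 (interval -0.24 to 0.36), the sterol reductase TM7SF2 0.12 (interval -0.16 to 0.41) and the ketoreductase HSD17B7 0.17 (interval -0.35 to 0.69). TM7SF2, HSD17B7 and, in the fatty acid arm, ELOVL6 averaged below the median gene, 4.30.

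The difference was also fitted directly, as the log2 ratio of each gene to MSMO1. Of the 28 other members, 27 changed less than MSMO1 by limma at an adjusted p under 0.05. Of all other genes 98.1% did, so this share says nothing particular about the pathway, and MSMO1 had been picked for its rise. DHCR7 was the exception: its change minus that of MSMO1 was -0.37, with a 95% interval of -0.79 to 0.05. For MVK the difference was -0.48 (interval -0.83 to -0.13) and for ACAT2 -0.45 (interval -0.85 to -0.05). The set depended on single arrays. Without shCTRL array 4, ACAT2, SQLE and STARD4 could not be told apart from MSMO1 either, while without shCD39 array 1 or shCTRL array 3 all 28 were below it.

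**Figure D3:**
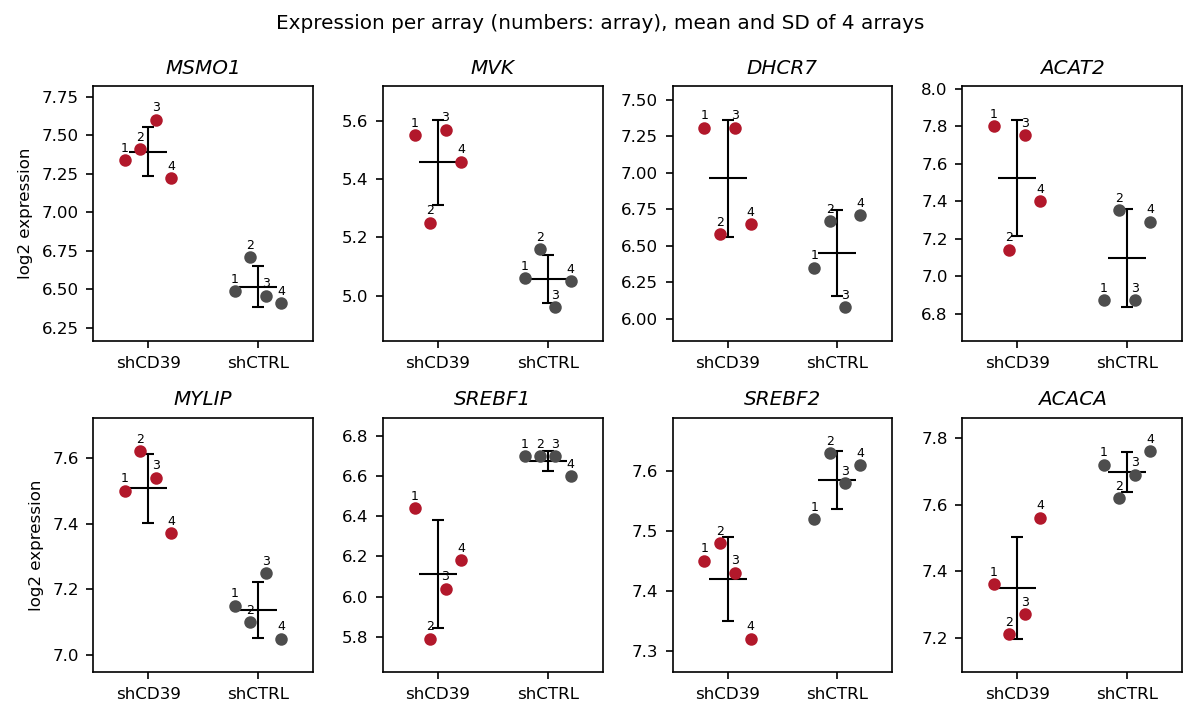
Log2 expression (y axis, own scale per panel) of 8 members in each array, red for shCD39 and grey for shCTRL, with the array number above each point and the mean and SD of 4 arrays in black. MSMO1, MVK and MYLIP lie higher and SREBF1, SREBF2 and ACACA lower in every shCD39 array, while DHCR7 and ACAT2 overlap.

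The transcripts of the regulators had changes below or near 0. SREBF1 read 6.44, 5.79, 6.04 and 6.18 in shCD39 arrays and 6.70, 6.70, 6.70 and 6.60 in shCTRL arrays. All shCD39 arrays lay below all shCTRL arrays, with array 1 the closest to them and array 2 the farthest. The change was -0.57, or 1.48-fold lower, with SE 0.13 and limma adjusted p = 0.103, short of the threshold. It ranged from -0.68 without shCD39 array 1 to -0.46 without shCD39 array 2.

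SREBF2 read 7.45, 7.48, 7.43 and 7.32 in shCD39 arrays and 7.52, 7.63, 7.58 and 7.61 in shCTRL arrays. The groups again did not overlap, but the change was small, -0.17 (SE 0.10, limma adjusted p = 0.461, exact permutation p = 0.0286). After quantile or cyclic loess normalization it was -0.09 (limma adjusted p = 0.762 and 0.753). INSIG1, which retains SCAP and is itself a sensitive SREBP target, had 0.04 with a 95% interval of -0.36 to 0.44. Its highest reading, 7.90, was in shCTRL array 4, and without that array the change was 0.22. INSIG2 stood at -0.01 and SCAP at -0.06.

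Of the genes of uptake and transport, 2 were measured. MYLIP, an LXR-induced ubiquitin ligase that marks lipoprotein receptors for destruction, read 7.50, 7.62, 7.54 and 7.37 in shCD39 arrays and 7.15, 7.10, 7.25 and 7.05 in shCTRL arrays. The groups did not overlap, with a change of 0.37 (SE 0.10, limma adjusted p = 0.14). MYLIP and SREBF1, the measured LXR targets, thus had changes of opposite sign. STARD4, a carrier that moves sterols between membranes and an SREBP target, had 0.34 (SE 0.20), or 0.22 without shCD39 array 3 and 0.56 without shCD39 array 2. Its shCD39 arrays ran from 5.59 in array 2 to 6.63 in array 3, beyond the shCTRL range of 5.76 to 6.14 on both sides.

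The fatty acid arm had values mostly on the other side of 0. Of its 8 genes, 7 had a change below 0, FASN by less than 0.01, and 1 above, with a median of -0.16, and none passed over all genes. After quantile or cyclic loess normalization, with array weights, or without array 4 of either group or both, 5 of the 8 were below 0. The median was -0.07 without shCD39 array 2. ACACA, the carboxylase that commits acetyl-CoA to fatty acids, read 7.36, 7.21, 7.27 and 7.56 in shCD39 arrays and 7.72, 7.62, 7.69 and 7.76 in shCTRL arrays. The groups did not overlap, with a change of -0.35 (SE 0.11, limma adjusted p = 0.175, exact permutation p = 0.0286).

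Fatty acid synthase, FASN, read 8.23, 7.07, 8.30 and 7.34 in shCD39 arrays and 7.56, 7.73, 7.60 and 8.05 in shCTRL arrays. The shCD39 arrays lay on both sides of the shCTRL range, 2 above and 2 below, so the mean change of 0.00 carries a wide interval, -0.56 to 0.55. The desaturases SCD, FADS1 and FADS2 had -0.16, -0.25 and -0.02, and the elongase ELOVL6 had -0.24. SCD and FADS1 rested on shCD39 array 2, the lowest of the 8 in both, and without it they had -0.06 and -0.08. Without shCD39 array 1 SCD had -0.26, and without shCTRL array 2 ELOVL6 had -0.16. ACLY, which splits citrate into acetyl-CoA, had -0.15. ACSS2, which makes acetyl-CoA from acetate, was the gene above 0, at 0.20 (SE 0.11), with 3 shCD39 arrays above the shCTRL range.

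The 26 measured members known as SREBP targets include SREBF1 and SREBF2 themselves. Over the 26, 17 had changes above 0 and 9 below, where 52% of all genes were above 0. The median was 0.08, or 0.06 over the 25 without MSMO1. Of these 25, 0 passed the threshold by limma. An unadjusted limma p under 0.05 was found for 5 of them, 3 higher and 2 lower, the latter SREBF1 and ACACA. Of all genes 14.7% had one, 6.54% higher and 8.13% lower. Among all 29 members, 6 had groups that did not overlap, 3 higher (MSMO1, MVK, MYLIP) and 3 lower (SREBF1, SREBF2, ACACA). Of all genes 7.85% did not overlap, 3.61% higher and 4.23% lower.

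Both arms were also summarised for each array. A score was taken as the mean log2 deviation of an arm's genes from their shCTRL mean. For the 14 cholesterol enzymes it was 0.29, 0.11, 0.36 and 0.26 in shCD39 arrays and -0.08, 0.05, -0.13 and 0.16 in shCTRL arrays, overlapping at shCD39 array 2 and shCTRL array 4. For the 8 fatty acid genes it was 0.08, -0.35, -0.05 and -0.17 in shCD39 arrays and -0.06, 0.08, -0.13 and 0.11 in shCTRL arrays, with much overlap.

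The cholesterol score minus the fatty acid score was 0.21, 0.46, 0.41 and 0.43 in shCD39 arrays and -0.02, -0.03, 0.00 and 0.05 in shCTRL arrays. The groups did not overlap. The SD over shCD39 arrays was 0.10 for the cholesterol score, 0.18 for the fatty acid score and 0.11 for their difference. Over shCTRL arrays it was 0.13, 0.11 and 0.04, so the difference varied least in shCTRL. The mean was 0.38 ± 0.11 in shCD39 and 0.00 ± 0.04 in shCTRL (SD, n = 4 each). Without MSMO1, MVK and ACACA the difference between the groups was 0.28, and shCD39 array 1 at 0.09 then stood next to shCTRL array 4 at 0.08. This contrast was chosen after the values were seen, and it is given as a description with no test.

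**Figure D4:**
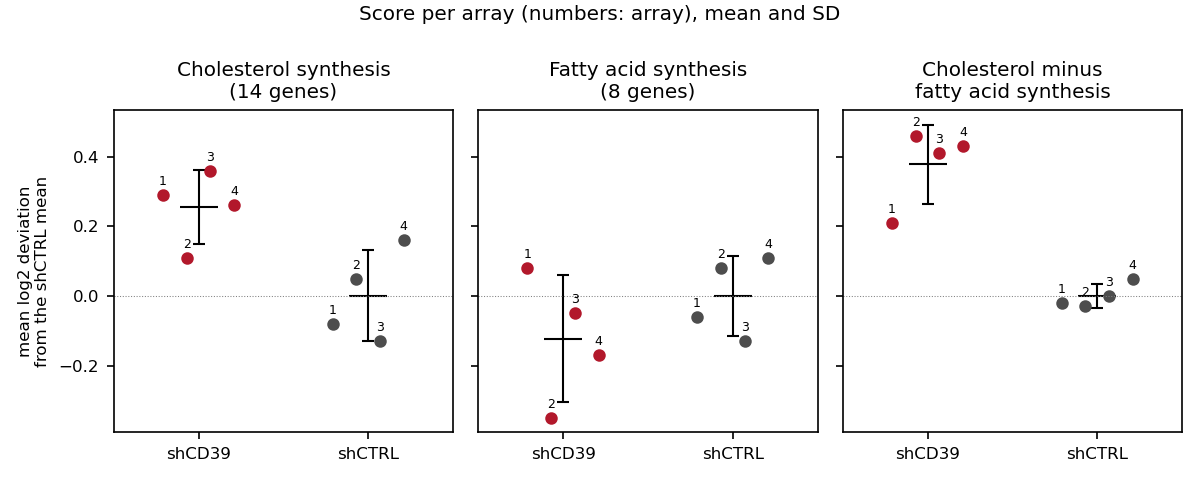
Score per array (mean log2 deviation from the shCTRL mean, y axis) for 14 cholesterol enzymes, 8 fatty acid genes and the first minus the second, red for shCD39 and grey for shCTRL, with array numbers and the mean and SD in black. The groups overlap in the first 2 panels and separate in the last, 0.21 to 0.46 in shCD39 against -0.03 to 0.05 in shCTRL.

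Other genes of sterol and lipid metabolism were taken from lists of 49 genes, of which 23 were measured and none passed over all genes. Their median was -0.08, with 10 above 0 and 13 below. ERLIN1, a scaffold of the endoplasmic reticulum that restrains SREBP activation, read 10.40, 10.11, 10.45 and 10.16 in shCD39 arrays and 9.55, 9.65, 9.56 and 9.89 in shCTRL arrays. The groups did not overlap, and the change was 0.61 (SE 0.12, limma adjusted p = 0.0805), short of the threshold. Of the fits that leave out 1 array, it passed in that without shCD39 array 4 (limma adjusted p = 0.0315), where 2.84% of all genes passed, and in the others the adjusted p was 0.0538 to 0.275. ERLIN1 also passed with array weights, without dim genes and without both arrays numbered 4 (limma adjusted p = 0.0402, 0.0486 and 0.028). In those settings 124, 64 and 368 genes passed. Under the remaining settings its adjusted p was 0.0621 to 0.179. Its change could not be told apart from that of MSMO1 (difference -0.26, interval -0.63 to 0.10). FAF2, another gene of that list of 4 measured, had -0.24.

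On the branch that leaves the pathway for dolichol, NUS1 had -0.50 (SE 0.15, limma adjusted p = 0.17), and DHDDS, its partner, had -0.07. NUS1 passed without shCD39 array 4, at -0.63 (limma adjusted p = 0.0381, 2.84% of all genes passing), and had adjusted p of 0.248 to 0.335 without any other single array. Among 7 measured genes of sterol esters and traffic, with a median of -0.08, the sterol transporter GRAMD1A had -0.51 (SE 0.16) and SOAT1, which esterifies cholesterol, -0.31 (SE 0.11). Among 10 further fatty acid genes, with a median of -0.04, the acyl-CoA synthetases ACSL1 and ACSL4 had -0.39 (SE 0.17) and 0.27 (SE 0.12). The sterol receptor list had 0 measured genes.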

How the data were processed

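The authors deposited log2 intensities summarised for each of 53617 probe sets on 8 arrays. RMA and oligo are the tools that the submitters' processing notes name, and biotin-labelled cRNA from total RNA was hybridised, per the labels' protocols. The sources used here give no tool version or design build. RMA brings arrays close to a shared distribution, which removes differences in total RNA. Arrays give no read depth, and their number limits the precision.

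Names came from the platform annotation, updated by Entrez ID through RefSeq (GRCh38.p14): 16098 probe sets had 1 symbol and 37519 were left unnamed. Any probe set with several symbols was left unnamed too. Each gene kept its brightest probe set (14884 genes), with no filter. FDPS and SCD were the members with more than 1. Groups were compared with limma 3.58.1 (lmFit, eBayes) in R 4.3.3, 2-sided, with Benjamini-Hochberg adjustment over all genes, and single genes also with a 2-sided exact permutation test. Intervals are at 95%. The fit on log2 ratios to MSMO1 and the contrast of the arms were added after the values were seen. The procedure was tested on simulated data with independent noise for each gene and array, so effects shared by the genes of an array were not covered. Figures used matplotlib 3.10.9 in Python 3.11.15.

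Members and lists were chosen with earlier results of these data known. The genes named are ENTPD1, all measured members and, of each other list of the pathway, up to 4 genes past the threshold or otherwise the 2 with the largest change. Cell type markers were named from lists of their own, chosen with the others. Same-numbered arrays of the groups did not deviate together (correlations of -0.037 to 0.062), so numbers were not taken as pairs. Alternatives were quantile, median and cyclic loess normalization, leaving out dim genes, averaging or testing all probe sets, an intensity trend, array weights, the replicate block and leaving out arrays. Promoter windows are RefSeq's; 26 of the 29 measured members had one.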

Additional observations from a re-analysis of the deposited data

Results flagged for a closer look

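In 58 groups of 4 arrays, 2 held a reading set far from the other 3 relative to the range of the group; chance alone gives about 1 in 20. SREBF1 read 6.60 in shCTRL array 4, where the other shCTRL arrays all read 6.70, so the gap is small in size. ACLY read 9.34 in shCD39 array 1, where the other shCD39 arrays read 9.09 to 9.13.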

How the results depend on the processing

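MSMO1 kept its direction under all 18 alternatives. It passed the threshold in 8 of the 10 other than leaving out 1 array and in 3 of the 8 that leave out 1 array, over which its log2 fold change ran from 0.81 to 0.94. With the replicate number as a block the change was 0.88 with limma adjusted p = 0.0687, and with every probe set tested 0.88 with adjusted p = 0.1, since more features are adjusted for; both then called 0 members. Only 1 of the 4 shCD39 arrays correlated best with its own number in shCTRL, so the block rests on a shared number alone. Members called ran from 0 to 1 when 1 array was left out.

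Over all genes, 14 were called as deposited, 124 with array weights, 64 without dim genes, 22 with an intensity trend, 5 after quantile normalization, 6 with the replicate block, 6 probe sets with every probe set tested and 368 without both arrays numbered 4. Leaving out 1 array gave 0 (without shCTRL array 1, where 1574 had an unadjusted p under 0.05) to 423 (without shCD39 array 4). Quantile normalization and the block left only higher genes, and cyclic loess left 7 higher and 3 lower. The causes were not tested.

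The median over members (0.06) ran from 0.01 to 0.15 and the difference between the arms (0.38) from 0.35 to 0.43. Of 501 values of the other members under alternatives, 0 crossed the threshold and 36 changed sign, in 9 members whose change as deposited was at most 0.17 in size. The number of arrays limits all of these.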

Other observations

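Many members shared an order of the arrays in shCTRL. There, arrays 2 and 4 both read above arrays 1 and 3 in 18 of 29 members (62.1%) and in 10 of the 14 cholesterol enzymes, against 20.5% of all genes. HMGCS1 read 5.93 and 6.13 in shCTRL arrays 2 and 4 and 5.59 and 5.53 in shCTRL arrays 1 and 3, and IDI1 read 6.19 and 6.44 in the first pair and 6.03 and 5.71 in the second. In shCD39, arrays 1 and 3 read above arrays 2 and 4 in 11 of 29 members (37.9%), against 22.5% of all genes. These were 5 of the 8 fatty acid genes (62.5%) but 4 of the 14 cholesterol enzymes (28.6%), close to the share of all genes. STARD4 read 6.57 and 6.63 in shCD39 arrays 1 and 3 and 5.59 and 6.24 in arrays 2 and 4. These pairs of arrays were chosen after the values were seen, the labels name no batch, and no test was made.

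The second probe set of SCD, dimmer than the one used, read 4.58, 3.84, 4.15 and 4.45 in shCD39 arrays and 4.59, 4.38, 4.13 and 4.74 in shCTRL arrays, with overlap. The second probe set of FDPS read 4.97, 5.04, 4.81 and 4.71 in shCD39 arrays and 5.11, 4.62, 4.68 and 5.06 in shCTRL arrays, with overlap as well.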
